A study of Sus scrofa with 9 samples.

Results

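The transcripts described here encode 8 aminotransferases of pig liver: GPT, GPT2, GOT1, GOT2, AGXT, AGXT2, OAT and PSAT1. They are 8 of the 29837 gene symbols in the deposited count table, matched by symbol, and all 8 passed the filter on low counts which kept 14100 genes. The enzymes were chosen by their shared reaction, but with the MIDY and WT values of these same livers already known, so every difference between the groups in them is given as a description and is not independent evidence. Which of them carried a call in the fit across all genes is stated for orientation only.

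Total RNA of whole liver was sequenced, with 4 animals in the MIDY group and 5 in the wild type (WT) group. Every animal was a female aged 2 years. The MIDY pigs model a diabetes of youth caused by mutant INS, the insulin gene, and carried the C94Y form as a transgene. Diabetic animals were given short and long acting insulin in the daytime, so genotype and insulin treatment cannot be told apart, and the MIDY livers are those of treated diabetic animals. Animals were fed daily, and each library is labelled as 1 animal. The sources used here do not give the promoter of the transgene, the founder line, litters, hours since feeding or batches.

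Aminotransferases hold pyridoxal phosphate, the active form of vitamin B6, and move an amino group from an amino acid to a keto acid. In liver they pass the nitrogen of incoming amino acids to glutamate and aspartate, which feed the urea cycle, and leave carbon skeletons that can become glucose. Alanine and aspartate aminotransferase each exist in a cytosolic form (GPT and GOT1) and a mitochondrial form (GPT2 and GOT2), and their activities in blood are the clinical liver tests ALT and AST. AGXT and AGXT2 use glyoxylate as acceptor, OAT opens the breakdown of ornithine, and PSAT1 makes the precursor of serine.

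Libraries held 14115415 to 19533463 counts, and TMM scaling factors ran from 0.90 to 1.10. Along the leading axis of a principal component analysis (500 genes of highest variance; 32.3% of it on this axis), the 4 MIDY libraries lay between -24.1 and -6.51 and the 5 WT libraries between -0.90 and 20.0, with WT replicate 1 nearest to MIDY. The liver label was borne out by hepatocyte markers (ALB, TTR, TF, APOA1, SERPINA1 and FGB), whose summed level was 133090 to 163465 CPM (counts scaled by TMM to a library of 1000000) in MIDY and 105544 to 164992 CPM in WT. Skeletal muscle markers summed to at most 0.11 CPM in MIDY and 0.35 CPM in WT, with TNNT3 at 0 counts, and pancreas markers to at most 3.98 CPM in MIDY and 2.29 CPM in WT, with GCG at 0 counts.

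Among the enzymes that handle alanine, the mitochondrial form differed far more than the cytosolic form. GPT2, on chromosome 6 (37625428 to 37669695, Sscrofa11.1), had 726, 768, 574 and 502 CPM in the 4 MIDY livers and 258, 166, 253, 164 and 119 CPM in the 5 WT livers. The lowest MIDY liver lay far above the highest WT liver, so the groups were apart. The mean was 642 ± 125 CPM in MIDY (SD, n = 4) and 192 ± 61.0 CPM in WT (SD, n = 5), a log2 fold change of 1.74 ± 0.23 (SE; 95% interval 1.25 to 2.23, not adjusted over genes). This was a 3.34-fold higher level.

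GPT, the cytosolic alanine aminotransferase on chromosome 4 (297747 to 302498), had 9.05, 10.1, 10.7 and 8.60 CPM in MIDY livers and 11.5, 6.94, 6.97, 6.75 and 8.08 CPM in WT livers. The highest value of all 9 was that of WT replicate 1, so the groups overlapped, although the other 4 WT livers lay below every MIDY liver. Its log2 fold change was 0.26 ± 0.17 (SE; 95% interval -0.11 to 0.64). GPT rested on 101 to 204 counts per library, and counting error alone gives a coefficient of variation of up to 9.95%, the coarsest of the 8.

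**Figure D1:**
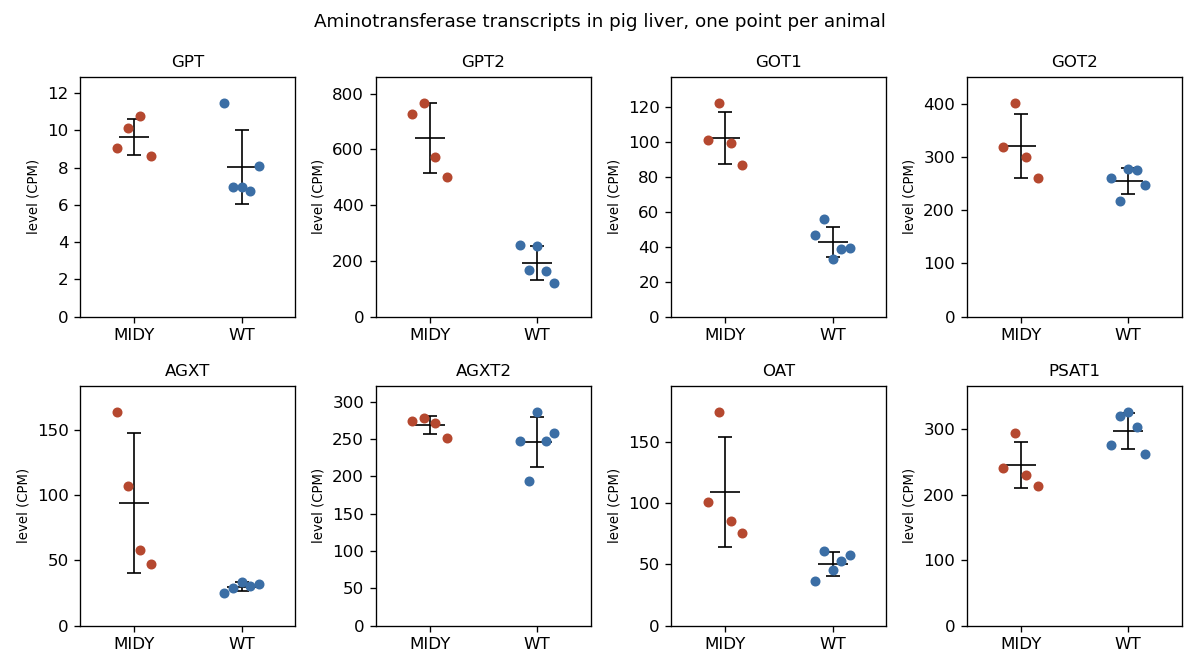
Level of each of the 8 aminotransferase transcripts in CPM (y axis, from 0) for MIDY and WT livers (x axis); a point is 1 animal, and the bar with whiskers is the mean ± SD (n = 4 MIDY, n = 5 WT). GPT2, GOT1, AGXT and OAT show no overlap between the groups, and the other 4 overlap.

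Aspartate aminotransferase showed the reverse arrangement, with the cytosolic form differing more. GOT1, on chromosome 14 (110608422 to 110635825), which works in the malate-aspartate shuttle and supplies cytosolic oxaloacetate from aspartate, had 101, 122, 99.7 and 86.7 CPM in MIDY livers and 46.7, 55.7, 33.1, 38.5 and 39.3 CPM in WT livers. No MIDY liver came near the WT range, and the log2 fold change was 1.26 ± 0.15 (SE; 95% interval 0.94 to 1.59), or 2.40-fold. Its SE was the smallest of the 4 members whose groups were apart.

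GOT2, the mitochondrial form on chromosome 6 (20407203 to 20431849), had 320.2, 403, 299.9 and 260.5 CPM in MIDY livers and 261, 217, 278, 275 and 247 CPM in WT livers. MIDY replicate 4 fell inside the WT range and the other 3 MIDY livers above it. The log2 fold change was 0.33 ± 0.13 (SE; 95% interval 0.04 to 0.61), and the gene was not called.

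Because the isoforms are read in the same library, their ratio of raw counts does not depend on scaling between libraries, and a ratio compared between animals does not depend on transcript length. GPT2 had 80.3, 75.7, 53.4 and 58.3 counts per count of GPT in MIDY livers, against 22.5, 23.9, 36.3, 24.3 and 14.8 in WT livers. The mean ratio was 66.9 ± 13.1 in MIDY (SD, n = 4) and 24.4 ± 7.73 in WT (SD, n = 5), with no overlap. The ratio does not say that mitochondrial transcripts outnumber cytosolic ones by these amounts, since transcript lengths were not used here.

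For aspartate aminotransferase the ratio of GOT1 to GOT2 counts was 0.315, 0.304, 0.332 and 0.333 in MIDY livers, against 0.179, 0.257, 0.119, 0.140 and 0.159 in WT livers. The 4 MIDY livers were close to each other (0.321 ± 0.014, SD, n = 4), while the WT livers spread more widely (0.171 ± 0.053, SD, n = 5) and WT replicate 2 stood nearest to MIDY. Between the groups the geometric mean ratio was 2.82 times as high for GPT2 over GPT and 1.95 times as high for GOT1 over GOT2. Since both ratios come from the contrast on which the genes were known, no test is given.

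**Figure D2:**
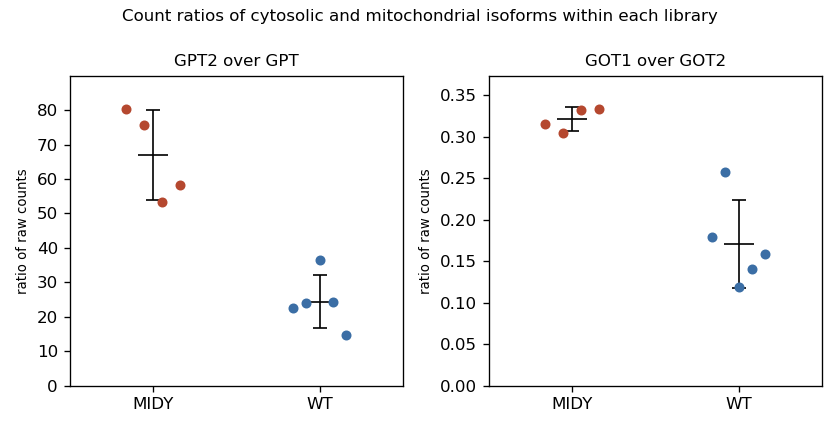
Ratio of raw counts (y axis, no unit, from 0) of GPT2 over GPT and of GOT1 over GOT2 for MIDY and WT livers (x axis); a point is 1 animal, and the bar with whiskers is the mean ± SD (n = 4 MIDY, n = 5 WT). In both panels every MIDY liver lies above every WT liver, and the MIDY values of GOT1 over GOT2 are tightly grouped around 0.321.

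Of the glyoxylate aminotransferases only AGXT had groups that were apart. AGXT, on chromosome 15 (139720648 to 139730737), turns glyoxylate and alanine into glycine and pyruvate, and its loss in humans causes primary hyperoxaluria. It had 164, 107, 58.1 and 47.0 CPM in MIDY livers and 24.96, 29.1, 33.4, 30.1 and 32.1 CPM in WT livers. The MIDY livers spread 3.50-fold from lowest to highest, with MIDY replicate 1 at the top, while the WT livers spread 1.34-fold.

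The mean of AGXT was 94.1 ± 53.6 CPM in MIDY (SD, n = 4) and 29.9 ± 3.26 CPM in WT (SD, n = 5). Its log2 fold change of 1.65 ± 0.33 (SE; 95% interval 0.91 to 2.39) was close in size to that of GPT2 but less precise, and AGXT was not called over all genes. Without MIDY replicate 1 the log2 fold change was 1.24 and the gene was called, and without MIDY replicate 4 it was 1.87, also called.

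AGXT2, a mitochondrial enzyme on chromosome 16 (20576661 to 20617008) that also acts on beta-aminoisobutyrate and on asymmetric dimethylarginine, had 274, 278, 272 and 251 CPM in MIDY livers and 248, 193, 287, 247 and 258 CPM in WT livers. The highest and the lowest of the 9 values were both WT, so the MIDY livers lay inside the WT range. The log2 fold change was 0.12 ± 0.12 (SE; 95% interval -0.13 to 0.37).

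OAT and PSAT1 stand at branch points of ornithine and serine. OAT, on chromosome 14 (133808193 to 133830517), is a mitochondrial enzyme that in mouse liver is expressed in the hepatocytes next to the central vein. It had 101, 174, 85.2 and 75.8 CPM in MIDY livers and 36.5, 60.5, 45.1, 52.3 and 57.8 CPM in WT livers. MIDY replicate 2 was the highest by far, and the lowest MIDY liver was still above the highest WT liver.

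The mean of OAT was 109 ± 44.8 CPM in MIDY (SD, n = 4) and 50.5 ± 9.76 CPM in WT (SD, n = 5), a log2 fold change of 1.11 ± 0.24 (SE; 95% interval 0.58 to 1.63), without a call. Without MIDY replicate 2 its log2 fold change was 0.79, and without MIDY replicate 4 it was 1.24 and called.

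PSAT1, the phosphoserine aminotransferase of serine synthesis on chromosome 1 (231142673 to 231172364), was the member with a fitted value below 0. It had 240.3, 294, 230.1 and 214 CPM in MIDY livers and 276, 320.1, 326, 303 and 262 CPM in WT livers. MIDY replicate 2 lay inside the WT range and the other 3 MIDY livers below it. The log2 fold change was -0.28 ± 0.12 (SE; 95% interval -0.54 to -0.02), without a call.

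In all, GPT2 and GOT1 were called higher by edgeR's quasi-likelihood test at a Benjamini-Hochberg adjusted p below 0.05, 2 of 8 members, where 0.816% of the 14100 genes tested were called higher. The number of members called lower was 0 of 8 (0 also with DESeq2 and with limma voom, and 1 member, PSAT1, had an unadjusted p below 0.05 and a negative value), where 0.355% of genes were called lower. The groups were apart with MIDY higher in 4 of 8 members (GPT2, GOT1, AGXT and OAT), a pattern found in 3.72% of all genes tested. Nothing is read from these shares, because the members were picked with this contrast known.

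The fitted log2 fold change was above 0 in 7 of 8 members with a median of 0.72, against a median of -0.0046 over all genes, of which 49.3% lay above 0. In the ranking of all genes by log2 fold change, GPT2 stood at percentile 99.7, AGXT at 99.7, GOT1 at 99.2 and OAT at 99.0. GOT2 (88.1), GPT (84.1) and AGXT2 (69.2) followed, and PSAT1 stood at 19.4. With each of the 9 libraries omitted in turn, GPT2 and GOT1 kept their call every time, as in the 8 other settings tried, while AGXT was called in 2 and OAT in 1 of the 9. No other RefSeq gene model overlapped the span of any of the 8 genes.

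**Figure D3:**
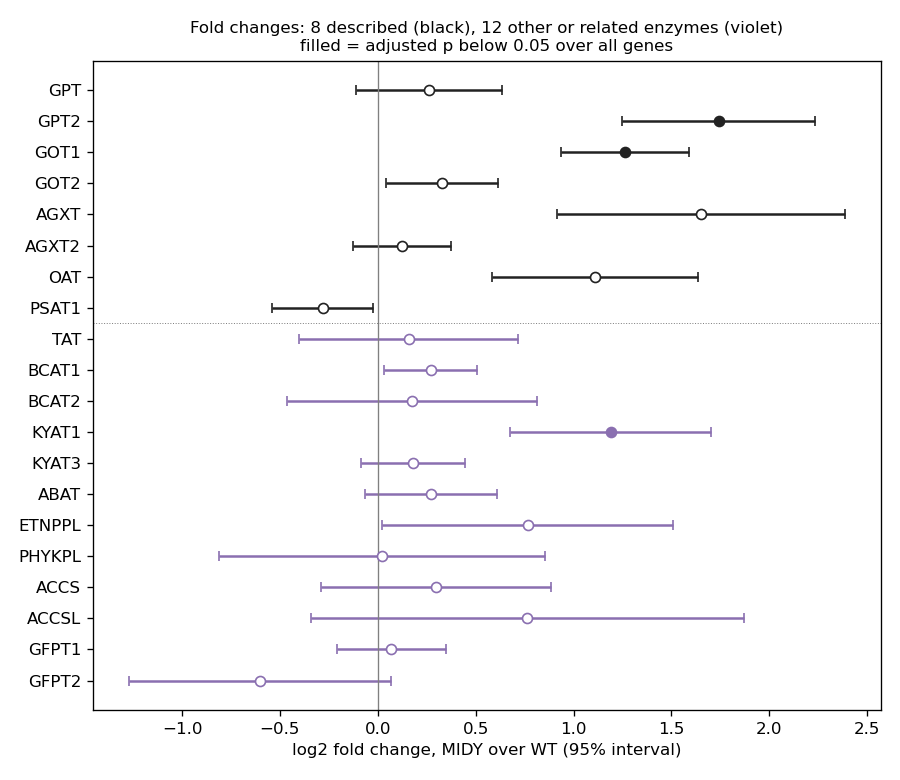
Log2 fold change of MIDY over WT (x axis) with its 95% interval, not adjusted over genes, for the 8 aminotransferases described (black, top) and 12 other aminotransferases or related enzymes (violet, below). Filled points passed an adjusted p of 0.05 over all genes, which GPT2, GOT1 and KYAT1 did.

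Summed over the 8 transcripts, MIDY livers carried 1936, 2156, 1630 and 1445 CPM and WT livers 1163, 1049, 1263, 1117 and 1024 CPM. GPT2 made up 35.8 ± 1.23% of this sum in MIDY (SD, n = 4) and 16.9 ± 4.23% in WT (SD, n = 5), shares that carry the length of each transcript and are compared between animals only. The share of PSAT1 was 13.7 ± 0.999% in MIDY and 26.6 ± 2.52% in WT (SD, n = 4 and 5). A share also falls when the rest of the sum rises. The level of PSAT1 itself was 245 ± 34.9 CPM in MIDY and 297 ± 27.8 CPM in WT (SD, n = 4 and 5). With GPT2 left out of the sum, the values were 1209, 1389, 1056 and 943 CPM in MIDY livers and 905, 883, 1010, 953 and 905 CPM in WT livers, and MIDY replicate 4 then fell inside the WT range. In whole liver, a change in the number of cells of a type and a change in RNA per cell cannot be told apart.

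Differences between animals of the same group were looked at after taking away each group's mean log2 CPM. Of the 28 pairs of members, 22 had a positive Pearson correlation of these deviations over the 9 animals, with a median of 0.33 (0.17 with libraries scaled by total counts alone), and 0 passed an exact permutation test that exchanged animals within their group (2880 arrangements, two-sided, Benjamini-Hochberg adjusted over 28 pairs; 1 pair had an unadjusted p below 0.05). That pair was GOT2 with AGXT2 (r = 0.64, exact permutation p = 0.00694, adjusted p = 0.194; Spearman rho = 0.65, exact p = 0.0618, adjusted p = 0.502). Without the 2 animals farthest from the median of GOT2, MIDY replicates 2 and 4, r was 0.84. With libraries scaled by total counts alone r was 0.40.

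The highest correlation was that of OAT with PSAT1 (r = 0.70, exact permutation p = 0.0882, adjusted p = 0.593; rho = 0.63, exact p = 0.102, adjusted p = 0.502), and it rested on MIDY replicates 2 and 4, without which r was 0.22. GPT2 and GOT1, the called members, had r = 0.12 (exact permutation p = 0.792, adjusted p = 0.887; rho = 0.27, exact p = 0.542, adjusted p = 0.726; r = 0.47 without WT replicates 1 and 3). The lowest correlation was that of GOT1 with AGXT2 (r = -0.64, exact permutation p = 0.119, adjusted p = 0.593; rho = -0.25, exact p = 0.570, adjusted p = 0.726), which became 0.54 without WT replicates 2 and 3. Within the groups, r for GOT1 with AGXT2 was 0.86 over the 4 MIDY and -0.93 over the 5 WT animals. It was 0.87 and -0.12 for GPT2 with GOT1, 0.996 and 0.13 for OAT with PSAT1, and 0.84 and 0.88 for GOT2 with AGXT2. The values over 9 animals therefore pool groups that can differ in sign. With TMM scaling, MIDY replicate 2 was above its group's mean and MIDY replicate 4 below it in all 8 members. The TMM factor was 1.10 for MIDY replicate 4, against 0.95, 0.97 and 1.02 for MIDY replicates 1, 2 and 3. The pattern depends on this scaling. With libraries scaled by total counts alone, MIDY replicate 4 was the highest MIDY liver for AGXT2.

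**Figure D4:**
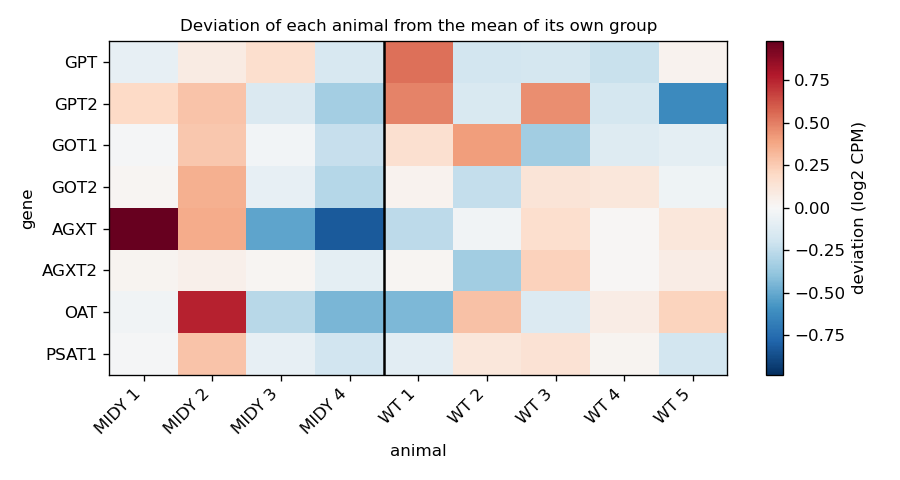
Deviation of each animal from the mean of its own group in log2 CPM (colour, red above and blue below the mean) for the 8 genes (rows) in the 4 MIDY and 5 WT animals (columns, separated by the black line). AGXT in MIDY replicates 1 and 4 and OAT in MIDY replicate 2 stand out. With the TMM scaling used here, the column of MIDY replicate 2 is above the mean in all 8 genes.

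The genes whose deviations over the 9 animals were most like those of a member were sought among 12959 other genes with a mean of at least 1 CPM, so the best of many correlations is given, with no test. For GPT2 they were FOXF1 (r = 0.97), LOC100624650 (r = 0.96) and SGPP1 (r = 0.95), and for GOT1 DPP7 (r = 0.99), KIAA1429 (r = 0.96) and DUSP22 (r = 0.94). GOT2 was most like PDPK1 (r = 0.99), PID1 (r = 0.94) and ITM2B (r = 0.94), and GPT most like LOC110261640 (r = 0.96), INTS12 (r = 0.95) and FAM13A (r = 0.94). AGXT was most like DNAJA2 (r = 0.98), PSMC4 (r = 0.97) and LOC100624333 (r = 0.97), and AGXT2 most like HHIP (r = 0.98), ADGRB1 (r = 0.97) and PCDHB6 (r = 0.94). For OAT they were SLC5A4 (r = 0.96) and SH3PXD2B (r = 0.92), and for PSAT1 CISD3 (r = 0.95), SERPINB1 (r = 0.95) and SUMO2 (r = 0.94). None of the genes named in this paragraph as most alike was called between MIDY and WT.

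The rest of the enzyme class was set beside the members. Of 13 further genes, aminotransferases and enzymes of related name or fold, 12 were tested, 1 was called higher and 0 lower (0 lower also with DESeq2 and limma voom, and 0 of the 12 had a negative value with an unadjusted p below 0.05), where 1.17% of all genes were called in either direction. The median log2 fold change of the 12 was 0.22. This list was also chosen with earlier results of these data known, so nothing is read from its share. The called gene was KYAT1, a kynurenine aminotransferase that also works on glutamine. KYAT1 had 30.1, 51.8, 29.3 and 20.2 CPM in MIDY livers and 15.4, 12.6, 16.5, 11.3 and 16.2 CPM in WT livers, and the groups were apart (log2 fold change 1.19 ± 0.23 SE; edgeR adjusted p = 0.0389). When single libraries were omitted, its call held only without MIDY replicate 4, and its log2 fold change ran from 0.89 to 1.36.

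TAT, the tyrosine aminotransferase that is induced by glucocorticoids and glucagon, was not called, at 933 ± 384 CPM in MIDY and 837 ± 119 CPM in WT (SD, n = 4 and 5; log2 fold change 0.16 ± 0.25 SE; edgeR adjusted p = 0.818). Of the branched-chain aminotransferases, cytosolic BCAT1 had a log2 fold change of 0.27 ± 0.11 with groups that were apart, and mitochondrial BCAT2 one of 0.17 ± 0.29 (SE; edgeR adjusted p = 0.251 and 0.828). KYAT3, a second kynurenine aminotransferase, had 0.18 ± 0.12 and ABAT, which breaks down GABA, 0.27 ± 0.16 (log2 ± SE; edgeR adjusted p = 0.511 and 0.417). TAT and BCAT2 changed the sign of their log2 fold change when a library was left out, at -0.083 for TAT without MIDY replicate 2 and -0.0089 for BCAT2 without MIDY replicate 4.

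ETNPPL, which has the aminotransferase fold but splits phosphoethanolamine, was at 288 ± 64.5 CPM in MIDY and 169 ± 78.2 CPM in WT (SD, n = 4 and 5; edgeR adjusted p = 0.300), with WT replicate 1 inside the MIDY range. Its relative PHYKPL, whose sign changed in 4 of the 9 omissions, was at 0.02 ± 0.38, and ACCS and ACCSL at 0.30 ± 0.27 and 0.76 ± 0.51 (log2 ± SE; edgeR adjusted p = 0.987, 0.637 and 0.493). GFPT1 and GFPT2, which open hexosamine synthesis by transfer of an amide, had 0.07 ± 0.13 and -0.60 ± 0.31 (log2 ± SE; edgeR adjusted p = 0.849 and 0.363), and GFPT1 was at -0.076 without MIDY replicate 1. The widest 95% interval among the genes without a call, that of ACCSL, reached from -0.34 to 1.87. AADAT, another kynurenine aminotransferase, had 0 counts in all 9 libraries, as had 7940 of the 29837 symbols. The limit that a count of 0 allows, 3 counts, equals 0.157 to 0.208 CPM in MIDY libraries and 0.150 to 0.208 CPM in WT libraries. Whether AADAT was not expressed or its reads were not counted was not tested.

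Genes around the 8 members were followed in 8 lists of 72 genes, of which 69 were in the table and were tested. The lists hold enzymes and carriers that handle related substrates, genes that supply pyridoxal phosphate, and regulators of amino acid breakdown. Of these 69, 6 rose and 0 fell in MIDY liver, and 21 had an unadjusted p below 0.05, 4 of them with a negative value. Over all 14100 genes tested, 0.816% were called higher and 0.355% lower, and 2277 had an unadjusted p below 0.05. Nothing is read from these shares, because the partner lists were also chosen with earlier results of these data known. With limma voom 7 partners were called higher and 0 lower, where 228 of all genes were called. With DESeq2, which called 639 of all genes against 165 by edgeR, 10 partners were called higher and 1 lower, the glutamine synthetase gene GLUL (edgeR log2 fold change -0.98 ± 0.31 SE, adjusted p = 0.170). The 6 were GLS2, LDHA, LDHB, ARG1, SDS and CREB3L3, and the median log2 fold change of the 69 was 0.14. By edgeR the number called was 2 without WT replicate 2, WT replicate 5, MIDY replicate 1 or MIDY replicate 2. It was 3 without MIDY replicate 3 and 1 without WT replicate 3.

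Around alanine, glutamate and pyruvate, 3 of 10 genes rose, with a list median of 0.43. GLS2, the liver glutaminase that releases glutamate and ammonia, was at 203 ± 22.5 CPM in MIDY and 127 ± 5.77 CPM in WT (SD, n = 4 and 5; edgeR adjusted p = 0.0114), and it was called whichever of the 9 libraries was omitted. The lactate dehydrogenase chains LDHB (1.34 ± 0.24) and LDHA (0.75 ± 0.14), which interconvert lactate and the pyruvate made by alanine aminotransferase, rose as well (log2 ± SE; edgeR adjusted p = 0.0273 for both). LDHB lost its call without any of MIDY replicates 1, 2 and 3 or WT replicates 2, 3 and 5 (log2 fold change 1.17 to 1.53 over the 9 omissions), and LDHA without MIDY replicates 2 or 3 or WT replicates 3 or 5 (0.68 to 0.84). Gene models that share the span of a named gene leave its counts uncertain, since the strand setting is unknown. This holds for GLS2, SLC25A12, HOGA1, HAO2, OTC, ARG2, SHMT2, DPYD, ALDH6A1, BCAT2, PHYKPL, ACCS and ACCSL, and the LDHB symbol has more than 1 entry in the reference.

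In the malate-aspartate shuttle, where GOT1 and GOT2 work with malate dehydrogenases and carriers, 0 of 7 tested genes were called (0 also with DESeq2, and 1 had an unadjusted p below 0.05) and the list median was 0.16. The aspartate-glutamate carriers SLC25A12 and SLC25A13 had log2 fold changes of -0.47 ± 0.20 and 0.25 ± 0.14, and the glutamate carrier SLC25A22 one of 0.32 ± 0.16 (SE; edgeR adjusted p = 0.270, 0.406 and 0.332). Among 10 genes of glyoxylate and glycine handling around AGXT, 0 were called (0 also with DESeq2, and 2 had an unadjusted p below 0.05). HOGA1, which makes glyoxylate from a hydroxyproline product, had 0.35 ± 0.12, GCSH of the glycine cleavage system -0.32 ± 0.12 and the hydroxy acid oxidase HAO2 0.16 ± 0.10 (log2 ± SE; edgeR adjusted p = 0.175, 0.204 and 0.462).

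Among 10 tested genes of ornithine, proline and arginine handling around OAT, ARG1 alone was called. ARG1, the arginase that makes ornithine and urea, was at 1616 ± 494 CPM in MIDY and 666 ± 194 CPM in WT (SD, n = 4 and 5; edgeR adjusted p = 0.0302). The call of ARG1 was lost without MIDY replicates 1 or 2 or WT replicates 2 or 3 (log2 fold change 1.06 to 1.40 over the 9 omissions). OTC, which uses ornithine for the urea cycle, had a log2 fold change of 0.45 ± 0.11 with groups that were apart, and the mitochondrial arginase ARG2 one of 0.76 ± 0.26 (SE; edgeR adjusted p = 0.0796 and 0.183). OTC was called higher with DESeq2 and with limma voom.

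In serine synthesis and use, 1 of 8 genes rose, SDS, which deaminates serine to pyruvate, with a log2 fold change of 2.24 ± 0.36 (SE; edgeR adjusted p = 0.0273). Its call was lost without MIDY replicate 1 or WT replicates 2, 3, 4 or 5 (1.79 to 2.45 over the 9 omissions). PHGDH and PSPH, the enzymes before and after PSAT1, had log2 fold changes of 0.45 and -0.79 and were not called. They were named after their values were seen. CBS, which condenses serine with homocysteine, had 0.51 ± 0.15 and SHMT2, which makes glycine from serine, 0.44 ± 0.18 (log2 ± SE; edgeR adjusted p = 0.117 and 0.267). The groups of CBS were apart, and CBS was called higher with DESeq2 but not with limma voom.

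Beside AGXT2, 0 of 6 genes of beta-amino acid and methylarginine handling were called (0 also with limma voom, 1 with DESeq2, DDAH1, and 2 had an unadjusted p below 0.05). DDAH1, which breaks down asymmetric dimethylarginine, had 0.67 ± 0.17 with groups that were apart, DPYD 0.24 ± 0.10 and ALDH6A1 0.21 ± 0.13 (log2 ± SE; edgeR adjusted p = 0.0798, 0.275 and 0.436). Of 6 genes that supply pyridoxal phosphate, the cofactor of all 8 members, 0 were called (0 also with DESeq2, and 0 had an unadjusted p below 0.05). The phosphatase ALPL had -0.31 ± 0.17 and the kinase PDXK 0.24 ± 0.20 (log2 ± SE; edgeR adjusted p = 0.401 and 0.595).

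Of 12 regulators known to act on amino acid breakdown in liver, 1 was called by edgeR and by limma voom, and 2 by DESeq2 (CREB3L3 and PPARA). CREB3L3, a membrane-bound factor of the fasted liver, rose by 0.72 ± 0.15 (log2 ± SE; edgeR adjusted p = 0.0394). It was called in 2 of the 9 omissions, without MIDY replicate 4 and without WT replicate 1 (log2 fold change 0.57 to 0.81 over the 9). PPARA had 0.74 ± 0.18 with groups that were apart, and KLF15, known in mouse as an activator of amino acid breakdown genes, -0.33 ± 0.21 (log2 ± SE; edgeR adjusted p = 0.0756 and 0.486).

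**Figure D5:**
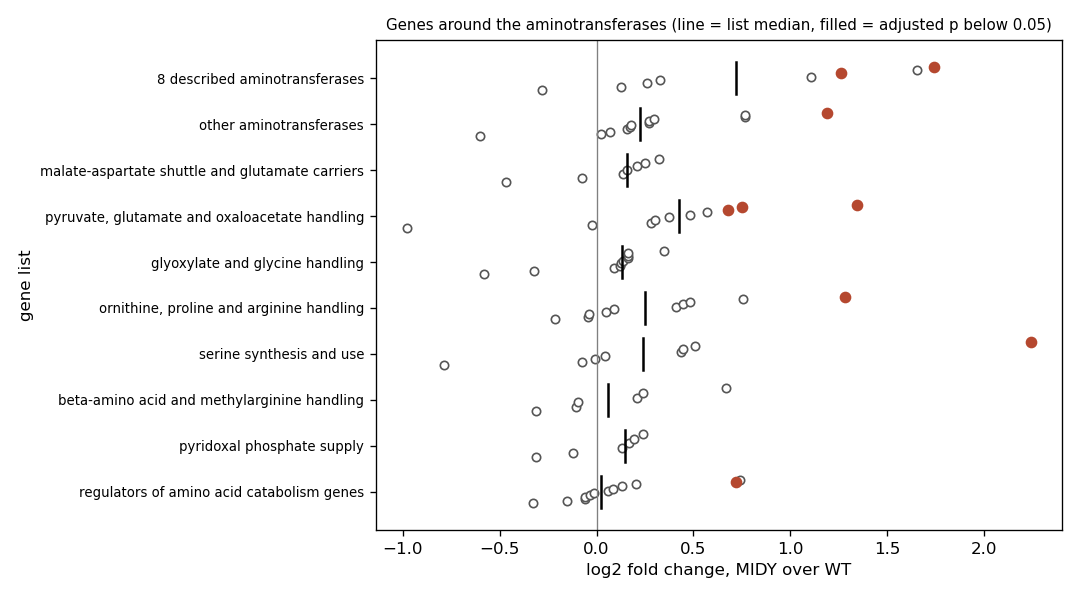
Log2 fold change of MIDY over WT (x axis) for every tested gene of the 10 lists (y axis); a circle is 1 gene, filled where the adjusted p over all genes was below 0.05, and the vertical line is the list's median. The partner list of pyruvate, glutamate and oxaloacetate handling holds 3 filled points, and the lists of the shuttle, glyoxylate, beta-amino acids and pyridoxal phosphate hold 0.

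Markers of liver zones and of other cells were also compared between the groups. Of 8 tested markers of periportal hepatocytes, the zone next to the portal vein, 5 were called higher, where 0.816% of all genes were. They were ARG1, ASS1, HAL, SDS and GLS2, of which ARG1, SDS and GLS2 are also counted among the partners above. PCK1 (log2 fold change 0.48) and CPS1 (0.57) were not called, nor was ALDH1B1, which had a value below 0 (-0.78). The summed level of the periportal markers was 6725 to 9621 CPM in MIDY and 4110 to 6262 CPM in WT. The marker lists were also chosen with earlier results of these data known, so nothing is read from this share. Of 9 pericentral markers, OAT among them, 1 was called higher (TBX3, log2 fold change 0.93), and the list's median log2 fold change was 0.24. RHBG (0.73), AXIN2 (0.33) and SLC1A2 (0.24) also had log2 fold changes above 0, like OAT, while GLUL (-0.98), LGR5 (-0.45), CYP2E1 (-0.45) and CYP1A2 (-0.14) had values below 0, none of them called by edgeR. The pericentral sum was 3969 to 5719 CPM in MIDY and 4876 to 9122 CPM in WT. Stellate cell and fibroblast markers summed to 193 to 326 CPM in MIDY and 295 to 506 CPM in WT, with COL1A2 called lower. T and NK cell markers summed to 8.42 to 10.3 CPM in MIDY and 12.02 to 21.4 CPM in WT, with CD2 called lower.

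For B cell markers the sums were 14.1 to 21.3 CPM in MIDY and 20.9 to 50.9 CPM in WT, and for neutrophil markers 3.93 to 5.86 CPM in MIDY and 5.83 to 11.3 CPM in WT. Both overlapped between the groups, like the pericentral sums and the stellate cell and fibroblast sums. The sums of macrophage (212 to 259 CPM in MIDY, 235 to 360.0 CPM in WT), endothelial (574 to 664 CPM in MIDY, 543 to 653 CPM in WT), biliary (20.6 to 28.9 CPM in MIDY, 18.5 to 29.9 CPM in WT) and erythroid markers (161 to 535 CPM in MIDY, 68.7 to 1487 CPM in WT) overlapped between the groups. The part of zonal or other cells in the aminotransferase values was not tested.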

How the data were processed

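The authors deposited raw counts of reads per gene symbol, 1 column per library, not normalized. The submitters' processing notes name STAR for alignment, HTSeq for counting, DESeq2 and the build Sscrofa11.1. Versions, annotation and strand setting are not given in these sources. Library preparation used Trizol and a Nugen Encore kit, per the labels' protocols. Columns were matched to samples by title and 0 columns were unused.

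Genes were filtered with filterByExpr (14100 kept, 99.9% of counts), scaled by TMM and fitted with edgeR 4.0.16 (R 4.3.3), robust quasi-likelihood, 4 MIDY against 5 WT. P-values are two-sided and Benjamini-Hochberg adjusted over all genes; a call is an adjusted p below 0.05. SE is the absolute log2 fold change over the square root of F. Log values used a prior count of 2. Alternatives included DESeq2 1.42.0 and limma 3.58.1 voom. The edgeR fit was also run on simulated counts with known fold changes, whose values are not quoted. Replicate libraries differed beyond sampling noise (chi-square per gene 14.0 to 49.9).

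Members, lists and tests were chosen with earlier results of these data known. Named genes are all members, all tested further aminotransferases, and of each partner list the 3 smallest p and all called; most alike genes are the 3 highest correlations. Some genes that this rule names are not reported here. Transcript lengths and sequences were not used here, so the planned levels per length are not given and levels are not compared between genes. Positions are from the RefSeq table of Sscrofa11.1, which held all 29837 symbols. The permutation tests of correlations were added after seeing the data.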

Additional observations from a re-analysis of the deposited data

Results flagged for a closer look

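In 3 of 96 groups of values tested (MIDY or WT values of a named gene, an isoform ratio or a sum), 1 library stood apart from the others of its group by more than Dixon's 95% critical value, where about 5% of groups are flagged by chance. GPT was at 11.5 CPM in WT replicate 1, against 6.75 to 8.08 CPM in the other 4 WT livers. BCAT2 was at 3.93 CPM in WT replicate 3, against 2.02 to 2.43 CPM in the other 4 WT livers. DPYD was at 219.6 CPM in MIDY replicate 4, against 267 to 273 CPM in the other 3 MIDY livers.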

How the results depend on the processing

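Other settings were total counts alone or RLE in place of TMM, removal of the 10 most abundant genes, testing without a low-count filter, a stricter filter (1 CPM or more in 4 or more libraries), DESeq2, limma voom, omission of each library, and omission of WT replicates 1 and 2 together. The number of members called higher (2) was 4 with total counts alone and with DESeq2, 3 with the stricter filter and 2 to 4 with a library left out; AGXT and OAT were the added members, with edgeR adjusted p = 0.0505 and 0.0532 in the fit to all libraries. It was 0 for members called lower in every setting listed. KYAT1, the 1 other aminotransferase called, became 0 to 1 called with a library left out and 0 without WT replicates 1 and 2. The 6 partners called became 11 with DESeq2 (10 higher, 1 lower), 1 to 8 with a library left out and 2 without WT replicates 1 and 2; the cause of these changes was not tested. Over all genes, 165 were called by edgeR with every library, 148 with total counts alone, 639 with DESeq2, 38 to 259 with a library left out and 66 without WT replicates 1 and 2. All 8 members kept the sign of their fold change in every setting listed. TAT, BCAT2, GFPT1 and PHYKPL, named genes without a call, changed sign when a library was omitted. TAT ran from -0.083 (MIDY 2 omitted) to 0.38, BCAT2 from -0.0089 (MIDY 4 omitted) to 0.40, GFPT1 from -0.076 (MIDY 1 omitted) to 0.14, and PHYKPL from -0.16 (WT 3 omitted) to 0.22, with -0.15 (WT 5), -0.098 (MIDY 2) and -0.098 (MIDY 4) between. No paired analysis was possible because the labels give no number that pairs the groups. With 4 and 5 animals, counts of 101 to 11641 per member and library gave a counting error below the biological coefficient of variation in all 8 members.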
